A study of Mus musculus with 6 samples.

Results

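Paneth cells sit at the base of the crypts of the small intestine and secrete granules of antimicrobial protein. Alpha-defensins are their best known product, and the 10 genes described here encode products other than defensins: Lyz1, Pla2g2a, Ang4, Itln1, Mptx1, Mptx2, Mmp7, Habp2, Nupr1 and Pnliprp2. They were picked by symbol from a list with no threshold on their values, though with earlier results of these data known, and all 10 were found among the 23402 gene symbols of the deposited table. The animals were 6 mice aged 6 weeks, each homozygous for a floxed allele of Il17ra (Il17ra fl/fl), which encodes a subunit of the interleukin-17 receptor. Of these, 3 carried a Cre recombinase driven by Atoh1 (labelled Atoh1-cre+, here Cre-positive) and 3 were littermates without it (Atoh1-cre-, here Cre-negative). All received dextran sodium sulfate (DSS), a polysaccharide that injures the intestinal epithelium, in drinking water, and whole terminal ileum was taken on day 6. Atoh1 specifies the secretory lineage, so this Cre is directed to goblet and enteroendocrine cells as well as Paneth cells, and tissue of other lineages keeps the intact receptor gene. No animals without DSS were analysed here, and strain background is not given in the labels.

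Paneth cells release their granules into the crypt lumen, where the proteins limit bacteria near the stem cells. Several of the 10 genes encode enzymes that attack bacteria directly: lysozyme cuts the peptidoglycan wall, secreted phospholipase A2 hydrolyses bacterial membrane lipids, and angiogenin-4 belongs to the ribonuclease A family. Others bind microbial surfaces or process the granule contents, such as matrilysin, the metalloproteinase that cuts pro-alpha-defensins into their active form in mice.

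Among these genes are members of 2 closely related gene pairs, and their coding starts are shown because fragments from such copies can be assigned to either gene. Lyz1 (chromosome 10 from 117287797 to 117292868, minus strand, GRCm38) lies beside Lyz2, the lysozyme of macrophages (chromosome 10 from 117277331 to 117282321, minus strand). Their coding sequences were identical at 425 of 447 positions (95.1%), and 195 of 1214 windows of 50 bases in the Lyz1 transcript (16.1%) also occurred in another gene. Capitals mark the 11 bases that differ between the pair over the first 120 coding bases, read from the transcripts of GENCODE M21.
Lyz1: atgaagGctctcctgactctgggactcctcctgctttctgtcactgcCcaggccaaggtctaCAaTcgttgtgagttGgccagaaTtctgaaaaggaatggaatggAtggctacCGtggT
Lyz2: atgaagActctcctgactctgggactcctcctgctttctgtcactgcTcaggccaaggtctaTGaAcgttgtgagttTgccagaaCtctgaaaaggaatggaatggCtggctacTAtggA
The mucosal pentraxins Mptx1 (chromosome 1 from 174330518 to 174332873, plus strand) and Mptx2 (chromosome 1 from 173274382 to 173277777, minus strand) were identical at 607 of 660 coding positions (92.0%) and shared 134 windows of 50 bases. Their first 120 coding bases differed at 1 position, in capitals.
Mptx1: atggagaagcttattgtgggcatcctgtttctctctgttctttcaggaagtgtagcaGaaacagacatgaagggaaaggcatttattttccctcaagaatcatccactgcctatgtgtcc
Mptx2: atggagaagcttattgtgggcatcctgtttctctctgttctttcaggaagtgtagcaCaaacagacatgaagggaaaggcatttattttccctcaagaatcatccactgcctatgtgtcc
The bases before their starts are shown because the levels of this pair stood far apart. Over 236 aligned columns within 250 bases before the RefSeq starts, 197 (83.5%) were identical. The stretches shown come from RefSeq's GRCm38.p6 and are read on the strand of each gene. They lie at chr1:174330368-174330517 for Mptx1 and chr1:173277778-173277927 for Mptx2. Counted from the RefSeq starts, this is -150 to -1 for Mptx1 and -171 to -22 for Mptx2. Capitals mark bases that differ from the other copy or have no counterpart in it, so the lines do not match letter by letter throughout.
Mptx1: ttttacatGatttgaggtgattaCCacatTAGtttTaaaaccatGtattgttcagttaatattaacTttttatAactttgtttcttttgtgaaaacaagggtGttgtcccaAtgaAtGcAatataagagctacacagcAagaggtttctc
Mptx2: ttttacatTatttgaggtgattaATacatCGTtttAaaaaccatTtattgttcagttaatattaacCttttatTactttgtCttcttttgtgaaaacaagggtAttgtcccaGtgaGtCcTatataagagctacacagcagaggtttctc

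The table gives FPKM, the number of sequenced fragments relative to transcript length and to library depth, so that levels can be compared between genes. Values below are listed in the order of the libraries numbered 1, 2 and 3 of each group. Steps in the lowest values corresponded to an estimated 8220000 to 9570000 fragments per library, and the libraries listed 16317 to 16547 genes above 0. Il17ra stood at 5.91 to 6.53 FPKM in the Cre-negative and at 6.07 to 8.36 FPKM in the Cre-positive libraries (log2 fold change 0.23, SE 0.13, exact two-sided permutation p = 0.2). The targeted gene was therefore not lower where Cre was labelled, although its value covers all exons together. Every Cre-positive or Cre-negative library below is so by its label only. Alpha-defensins, the defining Paneth cell products, summed to 21257 to 53323 FPKM in every library over 32 rows of the table. The ileal bile acid genes Fabp6 (0.316 to 9.79 FPKM) and Slc10a2 (0.0669 to 1.94 FPKM) were low in most libraries and highest in Cre-negative 3. Fgf15, the bile acid responsive hormone of the ileum, ranged from 0.139 to 7.70 FPKM, and Gata4, a transcription factor of more proximal small intestine, from 37.1 to 49.3 FPKM (both chosen after their values were seen). The level along the intestine at which each piece was taken, and its part in the results below, were not tested. Sex is not given in the labels: Xist stood at 148 to 177 FPKM in Cre-negative 3 and Cre-positive 2 and 3, and at 0.110 to 0.194 FPKM in the others, where Y-linked genes were high.

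All 10 Paneth cell products averaged lower in the libraries labelled Cre-positive, by 14.7% for Lyz1 to 33.0% for Mptx1, and none passed the test. With limma's moderated test over 12695 genes, the adjusted p was 0.998 for each of the 10, and 0.00% of all genes tested passed. The median log2 fold change of the 10 was -0.36, against 0.03 over all genes tested. An unadjusted p under 0.05 was reached by 4 of 10 (Pla2g2a, Mptx2, Habp2 and Nupr1), all with lower averages, where 1.07% of all genes were. The groups did not overlap, with all Cre-positive libraries lower, for 2 of 10 (Pla2g2a and Mptx2), where 2.60% of all genes did so. Estimates below 0 were found for 10 of 10, against 41.6% of all genes. The 10 genes varied together across libraries, as described below, so these counts are not 10 separate observations. In whole tissue, fewer Paneth cells and less RNA per cell cannot be told apart. Without Cre-negative 1 the median was -0.22 and 8 of 10 estimates were below 0. The count of 4 became 1 without Cre-negative 1 or without Cre-positive 3, 2 without Cre-positive 2, and 6 without Cre-negative 2.

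**Figure D1:**
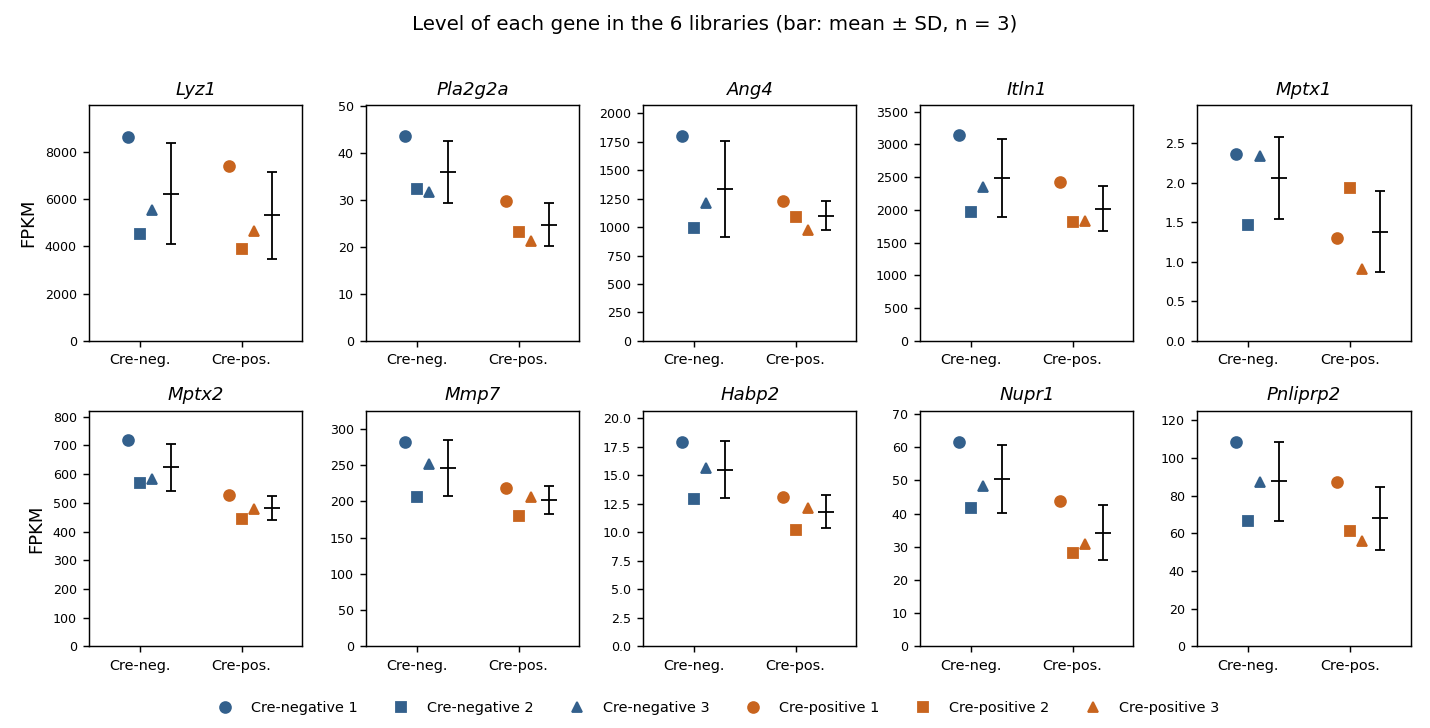
FPKM (linear axis from 0, 1 panel per gene) of each gene in the 3 libraries labelled Cre-negative (blue) and the 3 labelled Cre-positive (orange), with the mean and SD beside the points. Cre-negative 1 is the highest library in all 10 panels, and only Pla2g2a and Mptx2 separate the groups.

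Lyz1, the peptidoglycan-cutting lysozyme of Paneth cells, was the most abundant of the 10 per length of transcript and the 7th highest row of the whole table. Its level was 8628, 4499 and 5542 FPKM in the Cre-negative and 7397, 3869 and 4653 FPKM in the Cre-positive libraries. In both groups the first library stood well above the other two, and the groups overlapped almost fully. Means were 6223 ± 2147 FPKM and 5306 ± 1852 FPKM (SD, n = 3 each), a spread of 34.5% and 34.9% of the mean. The log2 fold change was -0.23 (SE 0.38, 95% interval -1.11 to 0.65, exact permutation p = 0.6). The interval spans 0 widely, and the estimate was 0.03 without Cre-negative 1, -0.03 without Cre-positive 2, -0.44 without Cre-negative 2, -0.50 without Cre-positive 1 and 0.44 after quantile normalization. The macrophage copy Lyz2 stood at 80.0, 57.8 and 55.0 FPKM and at 131, 103 and 69.0 FPKM, with a log2 fold change of 0.62 (0.41 without Cre-positive 1). How the sequence shared with Lyz2 divided between the copies was not tested.

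Pla2g2a, the group IIA secreted phospholipase A2 (chromosome 4 from 138831857 to 138835186, plus strand), is annotated by GENCODE as a polymorphic pseudogene, since some inbred strains such as C57BL/6 carry an inactivating frameshift. Its level was 43.5, 32.4 and 31.7 FPKM in the Cre-negative and 29.8, 23.2 and 21.2 FPKM in the Cre-positive libraries. Every Cre-positive library lay below every Cre-negative library, though Cre-positive 1 was close to Cre-negative 3. The log2 fold change was -0.52 (SE 0.16, 95% interval -0.90 to -0.14), with an unadjusted limma p of 0.0141 and an exact permutation p of 0.1, the smallest that 3 against 3 animals allow. Of the 10 genes it alone kept an unadjusted p under 0.05 in all 19 alternatives, and its adjusted p was never below 0.0909 in them. RNA level does not show which allele these mice carry. No window of 50 bases in its transcript occurred in another gene.

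Ang4, angiogenin-4, is a secreted ribonuclease with bactericidal activity (chromosome 14 from 51763878 to 51773590, minus strand). Its level was 1804, 989 and 1208 FPKM in the Cre-negative and 1233, 1088 and 978 FPKM in the Cre-positive libraries. Apart from Cre-negative 1, the libraries of both groups lay in the same range. Its log2 fold change was -0.24 (SE 0.24, 95% interval -0.81 to 0.33, exact permutation p = 0.6), and it was 0.0021 without Cre-negative 1, -0.43 without Cre-negative 2, -0.16 without Cre-positive 3 and 0.05 with array weights. Its closest paralog Ang5 (88.1% identical coding sequence) was listed at 0 in 5 of the 6 libraries. Ang, the family member with the smallest p, stood at 25.6, 21.0 and 29.2 FPKM against 18.3, 18.5 and 18.3 FPKM, with a log2 fold change of -0.43 (limma adjusted p = 0.998).

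Itln1, intelectin-1, is a lectin that binds microbial sugars (chromosome 1 from 171518122 to 171535294, minus strand). It was the second most abundant of the 10, at 3136, 1968 and 2351 FPKM in the Cre-negative and 2424, 1811 and 1826 FPKM in the Cre-positive libraries. Cre-positive 1 lay within the Cre-negative range and the other two just below it. Between the groups the log2 fold change was -0.29 (SE 0.25, 95% interval -0.86 to 0.29, exact permutation p = 0.3), and leaving out Cre-negative 1 gave -0.10, leaving out Cre-negative 2 gave -0.44, and it was 0.10 after quantile normalization.

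The mucosal pentraxins, relatives of C-reactive protein, are secreted proteins whose RNA levels differed widely, although 92.0% of their coding positions were identical. Mptx2 stood at 718, 568 and 585 FPKM in the Cre-negative and at 526, 445 and 478 FPKM in the Cre-positive libraries. All Cre-positive libraries were below all Cre-negative libraries, and it had the smallest relative spread among Cre-positive libraries of the 10 genes (8.45% of the mean). Its log2 fold change was -0.36 (SE 0.15, 95% interval -0.71 to -0.02), with an unadjusted limma p of 0.0413 and an exact permutation p of 0.1. Mptx1 stood at 2.37, 1.46 and 2.34 FPKM and at 1.30, 1.93 and 0.911 FPKM. The groups overlapped, because Cre-positive 2 was above Cre-negative 2. Its log2 fold change was -0.37 (SE 0.20, 95% interval -0.84 to 0.10, exact permutation p = 0.2), and it was 0.03 with array weights and -0.22 without Cre-positive 3. From the estimated depth, these values rest on about 5.98 to 18.1 fragments per library, so counting alone gives an error of 40.9% in the lowest.

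Mmp7, matrilysin, cuts pro-alpha-defensins in mouse Paneth cells (chromosome 9 from 7692090 to 7699585, plus strand). Its level was 281, 205 and 251 FPKM in the Cre-negative and 218, 180 and 206 FPKM in the Cre-positive libraries. Cre-negative 2 lay among the Cre-positive libraries. For Mmp7 the log2 fold change was -0.28 (SE 0.15, 95% interval -0.62 to 0.06, exact permutation p = 0.3), and it was -0.18 without Cre-negative 1. Habp2, a secreted serine protease that binds hyaluronan (chromosome 19 from 56287137 to 56320822, plus strand), stood at 17.9, 12.9 and 15.6 FPKM and at 13.0, 10.2 and 12.1 FPKM. The groups overlapped by a narrow margin, with Cre-positive 1 just above Cre-negative 2. Its log2 fold change was -0.36 (SE 0.14, 95% interval -0.69 to -0.03), with an unadjusted limma p of 0.0370 and an exact permutation p of 0.2. The exons of each overlap a gene on the opposite strand, AV064505 by 123 bases for Mmp7 and Nrap by 268 bases for Habp2. Whether strand was used in the authors' quantification is not stated in any source used here.

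Nupr1 encodes a small stress-induced chromatin protein and is the only one of the 10 whose product is not secreted (chromosome 7 from 126623249 to 126630861, minus strand). Its level was 61.5, 41.6 and 48.2 FPKM in the Cre-negative and 43.7, 28.3 and 30.8 FPKM in the Cre-positive libraries. Only Cre-positive 1 reached into the Cre-negative range. The log2 fold change of -0.55 was the furthest from 0 among the 10 in the fit reported (SE 0.19, 95% interval -1.0 to -0.10). Its unadjusted limma p was 0.0222 and its exact permutation p 0.2. With a pseudocount of 0.1, Mptx1 (-0.572) stood further from 0 than Nupr1 (-0.564). Pnliprp2, pancreatic lipase-related protein 2, hydrolyses triglycerides and galactolipids (chromosome 19 from 58759719 to 58777534, plus strand). It stood at 109, 66.8 and 87.5 FPKM against 87.2, 61.0 and 56.0 FPKM. Cre-positive 1 lay near Cre-negative 3, and the groups overlapped. The log2 fold change was -0.36 (SE 0.22, 95% interval -0.86 to 0.14, exact permutation p = 0.2), and leaving out Cre-negative 1 gave -0.19 and leaving out Cre-positive 3 gave -0.23. Its closest paralog, the pancreatic lipase gene Pnlip, was listed at 0 in all 6 libraries. It was 1 of 8 at 0 among 14 measured acinar cell genes, with Cpa1, Amy2a5 and Prss2. The 14 together summed to 3.73 to 6.97 FPKM in the Cre-negative and 5.04 to 5.31 FPKM in the Cre-positive libraries. Of them 2, Pnliprp1 included, averaged at least 1 FPKM and were tested, so acinar genes were low but not absent.

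**Figure D2:**
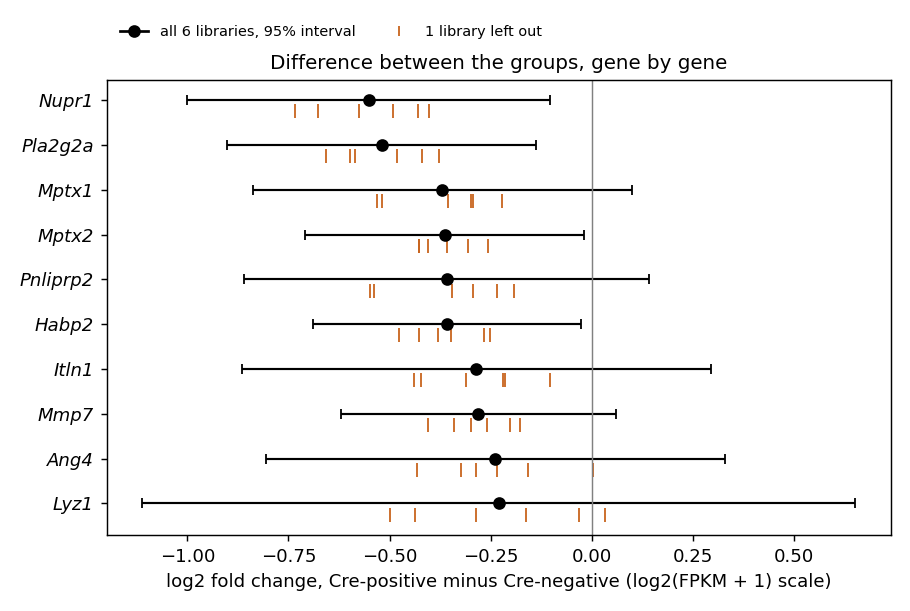
Log2 fold change of each gene, Cre-positive minus Cre-negative, on the log2(FPKM + 1) scale, with its 95% limma interval (line) and the estimate with each library left out in turn (orange ticks). All 10 estimates lie below 0, and the intervals of 6 genes include 0.

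The order of the 10 levels was the same in every library. It ran from Lyz1 through Itln1, Ang4, Mptx2, Mmp7, Pnliprp2, Nupr1, Pla2g2a and Habp2 to Mptx1. Over all 6 libraries, the ranges of neighbours in this order overlapped only between Pnliprp2 and Nupr1 and between Nupr1 and Pla2g2a. Together the 10 genes made up 1.44% to 2.46% of the summed FPKM of a library, of which Lyz1 alone was 51.5% to 61.8%.

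The libraries differed from each other in the same way for nearly all of these genes. Cre-negative 1 was the highest of the 6 libraries for 10 of 10 genes, with a mean deviation of 0.48 on the log2 scale from each gene's own mean. Cre-negative 2 was the lowest of its group for 9 of 10, with a mean deviation of -0.10, and Cre-negative 3 stood at 0.15. Cre-positive 1 was the highest of its group for 9 of 10 (0.06), while Cre-positive 2 (-0.29) and Cre-positive 3 (-0.30) shared all the lowest values of the 6. The mean of Cre-positive 1 thus lay between those of Cre-negative 2 and Cre-negative 3. Among pairs of the 9 genes other than Mptx1, Pearson's r over the 6 libraries was 0.75 to 0.99 in 36 pairs, highest for Mmp7 with Habp2. With the low Mptx1, r was 0.29 to 0.65 in 9 pairs. These correlations are descriptions over libraries that share the group difference and the depth. Relative to Lyz1 of the same library, the groups overlapped for each of the other 9 genes.

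**Figure D3:**
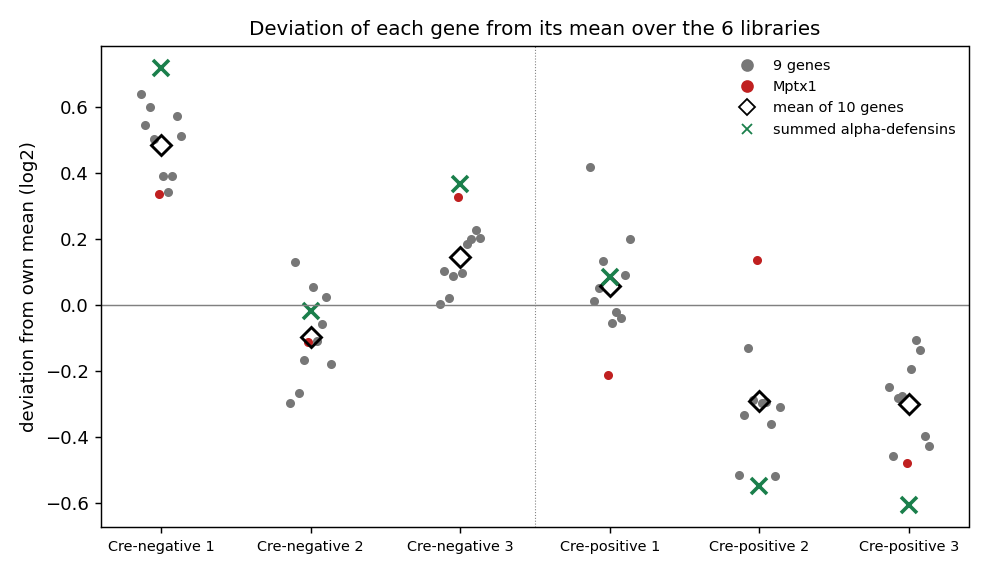
Deviation of each gene from its own mean over the 6 libraries (log2 scale), with Mptx1 in red, the mean of the 10 genes as a diamond and the summed alpha-defensins as a cross. Cre-negative 1 is highest with a mean of 0.48, and Cre-positive 2 and 3 are lowest at -0.29 and -0.30.

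Within the libraries with high Xist (1 Cre-negative, 2 Cre-positive), 10 of 10 differences were below 0 with a median of -0.42. Within those with high Y-linked genes (2 Cre-negative, 1 Cre-positive), 8 of 10 were, with a median of -0.17. There Lyz1 (0.25) and Pnliprp2 (0.03) were above 0. Each of these splits rests on 1 library on one side. As the 10 genes varied together, that library can set most signs, and the counts are not separate observations. With a sex term fitted over all 6 libraries, the median was -0.29, 2 of the 10 (Pla2g2a and Nupr1) had an unadjusted p under 0.05, and the estimate for Lyz1 was -0.07.

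The summed alpha-defensins varied over the libraries much as the 10 genes did, and over a wider range. Their sum was 53323, 31974 and 41767 FPKM in the Cre-negative and 34343, 22113 and 21257 FPKM in the Cre-positive libraries. Its log2 value had r = 0.98 with the mean of the 10 genes over the 6 libraries. Near-identical copies make single defensin values uncertain, and of 26 tested copies 11 had r of at least 0.8 with that mean while 5 had r below 0. The 10 genes together amounted to 27.8%, 26.2% and 24.2% of the defensin sum in the Cre-negative libraries and to 34.9%, 34.0% and 38.9% in the Cre-positive libraries, without overlap.

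The defensin sum itself was lower in the Cre-positive libraries (log2 ratio of means -0.71), and a ratio to it is higher for nearly any gene. Over 12631 genes above 0 in every library, defensins left out, 99.5% averaged a higher ratio in the Cre-positive libraries, with a median of 1.68-fold. For the 10 genes the ratio averaged higher in 10 of 10, by 1.07-fold to 1.40-fold with a median of 1.27-fold. That median lies below the 1.68-fold of all genes. Since the same sum divides every gene, this only restates the lower fold changes of the 10. Groups did not overlap for 4 of the 10 (exact permutation p = 0.1 each, 0.25 after Benjamini-Hochberg adjustment over the 10), against 27.1% of the 12631 genes. The counts therefore show nothing particular to these genes, and the shared denominator makes the ratios depend on each other. Lyz1 was 16.2%, 14.1% and 13.3% of the defensin sum against 21.5%, 17.5% and 21.9%. Pnliprp2 showed the tightest groups, at 0.204%, 0.209% and 0.209% against 0.254%, 0.276% and 0.264%. Itln1 (5.88%, 6.16% and 5.63% against 7.06%, 8.19% and 8.59%) and Ang4 (3.38%, 3.09% and 2.89% against 3.59%, 4.92% and 4.60%) were the others. The ratios of Pla2g2a, Mptx1, Mptx2, Mmp7, Habp2 and Nupr1 overlapped between the groups.

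**Figure D4:**
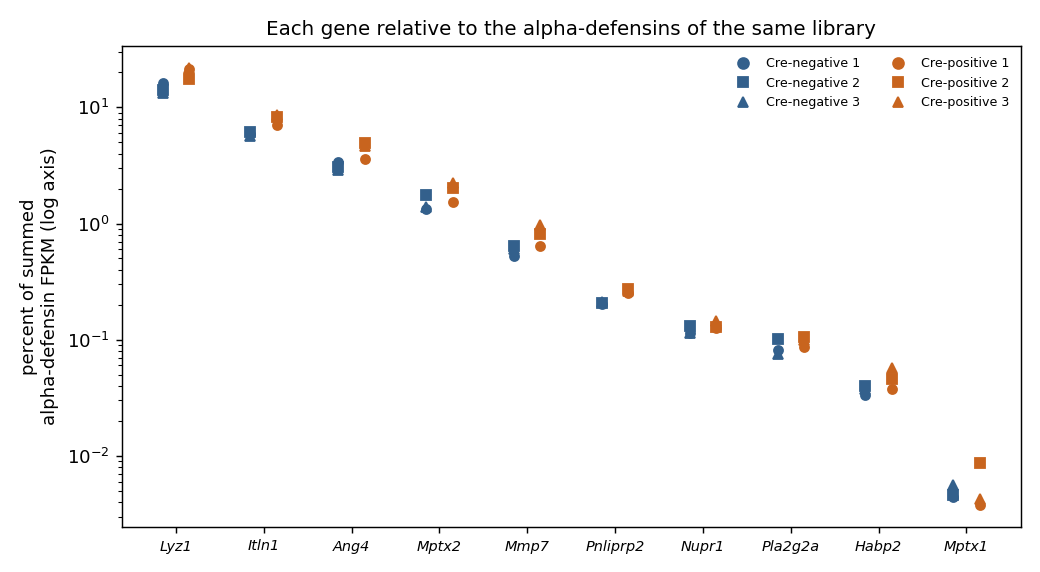
FPKM of each gene as a percent of the summed alpha-defensin FPKM of the same library (log axis), Cre-negative libraries in blue and Cre-positive in orange. The groups separate for Lyz1, Itln1, Ang4 and Pnliprp2.

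Genes that specify or maintain Paneth cells had estimates on both sides of 0. Of 22 tested genes in a list of transcription factors, receptors, sensors and niche factors of the cell, 10 had estimates below 0 and 12 above 0 (median log2 fold change 0.09), and 0 passed the test. The log2 value of the list's sum had r = 0.97 with the mean of the 10 genes. Abundant genes such as Clps weigh most in that sum. The 3 of the list with the smallest p all averaged higher in the Cre-positive libraries. Sox9, which crypt progenitors and Paneth cells need, stood at 7.52, 9.21 and 8.16 FPKM against 9.98, 10.2 and 9.89 FPKM. Ern2, an endoplasmic reticulum stress sensor of mucus-secreting cells, had a log2 fold change of 0.22, and the bacterial sensor gene Nod2 one of 0.26. For Sox9 it was 0.25, with an unadjusted limma p of 0.0426. In all 3 the groups did not overlap, which is no separate result because they were picked by their p. Of the 22, 5 were higher without overlap and 0 lower, and the share of all genes higher without overlap is not given here. Nod2 stood near the filter of 1 FPKM, at 1.15, 1.07 and 1.10 FPKM against 1.41, 1.70 and 1.48 FPKM. Clps, which encodes the lipase cofactor colipase, was also counted in this list although it is a secreted product. It stood at 437, 273 and 280 FPKM against 306, 216 and 213 FPKM (log2 fold change -0.41, chosen after its values were seen). Atoh1 itself averaged 9.61 ± 1.25 FPKM and 10.4 ± 1.07 FPKM (SD, n = 3 each).

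A list of other antimicrobial genes and the paralogs of the 10 genes were also examined. Which cells made their RNA, Paneth cells or others, was not tested. Of 10 tested antimicrobial genes, 10 of 10 estimates were below 0 (median -0.34) and 0 passed. The smallest p values belonged to the C-type lectins Reg3b (log2 fold change -0.86) and Reg3g (-0.81) and to the ribonuclease gene Rnase4 (-0.35), and 7 of 9 tested were below 0 without Cre-negative 1. The locus of Rnase4 (chromosome 14 from 51091077 to 51106151) spans that of Ang on the same strand, so their lower values may not be separate results. Reg3g was -0.43 without Cre-negative 2, and under quantile normalization Reg3b was -0.11 and Reg3g -0.41. Unlike the 10 genes, Reg3b and Reg3g were highest in Cre-negative 2, at 9184 and 4438 FPKM. Of 12 tested paralogs, 7 were below 0 and 5 above (median -0.10), 0 passed, and Pnliprp1 had a log2 fold change of -0.33.

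Markers of other cell types were read beside these results. Goblet cell genes, the other large Atoh1-dependent secretory class, had 8 of 14 estimates below 0 (median -0.03), with Bcas1 at 0.26, the mucin gene Muc2 at 0.24 and Fcgbp at 0.22. Without Cre-negative 1, Muc2 was at 0.10 and Fcgbp at 0.09, and without Cre-positive 1 Bcas1 was at 0.16. Crypt stem cell genes had 7 of 11 above 0 (median 0.10), with Ascl2 at 0.47 and Lgr5, the defining marker, at 0.12. General epithelial genes had 10 of 15 below 0 (median -0.03), and their summed level was 5103 to 5515 FPKM against 4794 to 5874 FPKM. After rescaling to an equal sum, 4 of 15 epithelial, 3 of 14 goblet cell and 5 of 10 muscle estimates were below 0. Enterocyte genes had 12 of 13 below 0 (median -0.19; 6 of 13 without Cre-negative 3), and smooth muscle genes 7 of 10 (median -0.13). The muscle sum was 756 to 1003 FPKM against 670 to 827 FPKM, and its log2 value had r = 0.83 with the mean of the 10 genes. Macrophage genes had 10 of 12 above 0 (median 0.05), and 4 of 12 without Cre-positive 1. B cell genes summed to 10.6 to 21.0 FPKM in the Cre-negative libraries and to 101, 126 and 15.5 FPKM in the Cre-positive libraries, with 12 of 12 estimates above 0. Of the Cre-positive libraries, only Cre-positive 3 lay within the range of the Cre-negative libraries for this sum. No gene of these lists passed the test over all libraries, and 10 B cell genes did without Cre-positive 3. The part of these cell types in the results on the Paneth cell products was not tested.

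The genes whose pattern over the 6 libraries was most like the mean of the 10 were sought among 8830 others with a mean of at least 5 FPKM, alpha-defensins left out. They were Coa4 (Pearson's r 0.99), Ech1 (0.98), Cd63 (0.98), Creg1 (0.98), Ppp6c (0.98) and Tm4sf5 (0.98), and 79 genes had r of at least 0.9. Their log2 fold changes were closer to 0, from -0.07 for Ppp6c to -0.20 for Ech1. For Mptx2 alone the nearest were Atraid and Eci2 (0.98 each). With 6 libraries and many candidates, such values are descriptions only.

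Motifs of TCF/LEF factors and of basic helix-loop-helix factors such as Atoh1 were searched in the 250 bases before the RefSeq starts, on both strands, for the 9 genes with an entry. The sequence CTTTGAT was found in Mmp7 and in 3.21% of 32851 promoters, CTTTGAA in Mptx1 and in 4.46%, and CAGCTG in Nupr1 and in 13.0%. By the GENCODE coordinates given above, the windows of Mmp7 and Nupr1 lie within the annotated span of the gene. The matches are of letters in a short window and were not linked to the levels.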

How the data were processed

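RNA of whole terminal ileum was sequenced from 6 mice, 1 library each, with TRIZOL extraction and a directional NEBNext Ultra II kit per the labels' protocols. The authors deposited FPKM values, 1 column per library. Cufflinks and Cuffnorm, STAR, Trimmomatic, FastQC, bedtools and SAMtools are named, without versions, in the submitters' processing notes, with the builds GRCm38 and mm10. No source used here states how libraries were scaled or how fragments shared between genes were assigned.

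Groups and numbers came from the sample titles. FPKM values are not counts, so the 12695 genes that averaged 1 FPKM or more were tested on log2(FPKM + 1), which understates the change of low genes, by limma (moderated, two-sided, trend on mean level; Benjamini-Hochberg adjustment, threshold 0.05). Single values had exact two-sided permutation tests, whose smallest p is 0.1. Tools were limma 3.58.1 in R 4.3.3, and scipy 1.17.1, numpy 2.4.6, pandas 2.3.3 and matplotlib 3.10.9 in Python 3.11.15. On simulated data the test recovered 31.9% of 1.5-fold, 75.7% of 2-fold and 93.7% of 4-fold differences seeded among 12695 genes. The simulation drew each gene independently and averaged over all genes. Its shares do not apply to the 10, which varied together and had a median SE of 0.20 against 0.13 over all genes. Fragments per library were estimated from the most frequent product of FPKM and exonic length in single-transcript genes, taken as a single fragment. That step held 13 to 21 genes per library, so the fragment numbers are rough. The depth of libraries relative to each other was read separately. There, 68.0% to 71.5% of ratios of low values matched ratios of whole numbers within 0.02 (log2). At other scales the median was 11.3% to 12.6%.

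The genes and the 12 lists were chosen with earlier results of these data known. Named were the 10 genes, up to 3 genes of each other list with the smallest p, defining markers, closest paralogs and the genes most alike in pattern. The pattern matches of Lyz1 alone are not reported here. Of 175 list entries, 2 were matched through an older symbol and 3 found no row. GENCODE M21 gave the coordinates (21814 symbols matched). RefSeq promoters were matched for 9 of the 10 genes. Alternatives were 2 other pseudocounts, 2 filters, 4 scalings, 3 variance models, the replicate number as a block, a sex term and each library left out.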

Additional observations from a re-analysis of the deposited data

How the results depend on the processing

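None of the 10 genes passed the test in any of 19 alternatives, and the lowest adjusted p was 0.0909 (Pla2g2a with array weights). The median log2 fold change of the 10 stayed below 0 throughout, from -0.46 to -0.22 with a library left out and -0.16 with array weights. Rescaling to an equal sum moved the median of all genes to 0.13 and that of the 10 to -0.25. The gap between these medians was -0.38, against -0.39 in the fit reported. A single factor per library moves both medians almost alike, so this gap was nearly fixed in advance. It was -0.28 under quantile normalization, -0.19 with array weights, and -0.49 to -0.28 with a library left out. Directions turned for Lyz1 (0.44) and Itln1 (0.10) under quantile normalization, for Ang4 (0.049) and Mptx1 (0.026) with array weights, and for Lyz1 and Ang4 without Cre-negative 1. With a library left out, Lyz1 ranged from -0.50 to 0.032 and Ang4 from -0.43 to 0.0021. The cause was not tested. Over all genes, 0 passed in the fit reported (459 at an unadjusted p under 0.05), 2 with a pseudocount of 0.1, with one of 5, after rescaling to an equal sum or with epithelial scaling, 24 with array weights, 1 with the replicate block, and 0 to 46 with a library left out (46 without Cre-positive 3). Same-numbered libraries had correlations of -0.13, 0.03 and -0.11 between their deviations from their group means over all genes. With so few libraries, these values cannot decide whether same-numbered libraries share more than a name. Under the block, Pla2g2a, Habp2, Nupr1 and Pnliprp2, but not Mptx2, had an unadjusted limma p under 0.05. With a filter of 5 FPKM, Mptx1 was not tested. Depth limits Mptx1 most, since its values rest on few fragments. The median SE of the 10 was 0.20, against 0.13 over all genes.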
